A study of Mus musculus with 9 samples.

Results

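The mitochondrial genome of the mouse is a small circular DNA that encodes 37 genes, and these 37 genes were followed here as a set: 13 mRNA genes, 2 rRNA genes and 22 tRNA genes. They were chosen by identifier, as the run of Ensembl genes that covers the mitochondrial chromosome in genome order. The rule uses no measured value, but it was set with earlier results of these data known. All 37 have a row in the table of 27497 genes that the authors deposited. The table gave a symbol for 8 of them, and GENCODE M21 supplied the other names by identifier. The gene that the table calls DQ539915 is mt-Co1.

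Olfactory bulbs of 9 C57/BL6 mice were profiled, 3 in each of 3 groups. All mice were adults (6 to 8 weeks of age, or more). No transgene or deletion is given for any group. The control group breathed clean air. The 30 min group was exposed to a cocktail of odorants for that time, and the 120 min group had the same exposure followed by 90 min in clean air. RNA was selected with oligo-dT beads, which hold transcripts with a poly(A) tail, and sequenced from paired ends. Levels are in RPKM, the reads of a gene scaled by its length and by the size of the library. An RPKM is a share of a library, so a lower value can come from fewer cells of a type or from less RNA per cell, and these bulk samples cannot tell them apart.

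Mitochondrial DNA is transcribed by its own RNA polymerase into long precursors that cover most of each strand. Enzymes then cut the tRNAs out of the precursor, which frees the mRNAs and rRNAs that lie between them, and a mitochondrial poly(A) polymerase adds short tails to most mRNAs. The mRNAs encode subunits of respiratory complexes I, III and IV and of ATP synthase, and the rRNAs and tRNAs serve the ribosome that translates them inside the organelle. Bulb neurons depend on this respiration for the energy of synaptic signalling. By annotated strand, 28 of the 37 genes are transcribed from the heavy strand and 9 from the light strand: mt-Nd6, the single light-strand mRNA, and 8 tRNAs.

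The ends of the mRNAs are shown first because the libraries were selected through poly(A) tails and several of these genes end without a full stop codon. In the GENCODE M21 transcripts mt-Co3, mt-Nd4 and mt-Cytb end on a single T, which the tail is known to complete to a stop codon, and the other 10 mRNA genes end in TAA or TAG. The last 30 bases of mt-Cytb and mt-Nd4, and of mt-Nd1 and mt-Nd6 for comparison, read as follows, 5′ to 3′ on the strand of the transcript, with the encoded part of the stop codon in capitals.
mt-Cytb: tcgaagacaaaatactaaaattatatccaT
mt-Nd4: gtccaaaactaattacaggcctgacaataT
mt-Nd1: tttacagcgggagtaccaccatacataTAG
mt-Nd6: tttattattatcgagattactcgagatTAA

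Several genes of this compact genome overlap, and the overlaps matter for how reads can be given to a gene. The end of mt-Atp8 overlaps the start of mt-Atp6 by 43 bases and that of mt-Nd4l overlaps mt-Nd4 by 7 bases on the same strand. The end of mt-Nd5 overlaps the end of mt-Nd6 by 14 bases on opposite strands. Each sequence runs along the heavy-strand transcript into the end of its first gene, with the overlap in capitals.
mt-Atp8 and mt-Atp6: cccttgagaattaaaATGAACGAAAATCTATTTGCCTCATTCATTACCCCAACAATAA
mt-Nd4l and mt-Nd4: tctcaacctactacaATGCTAA
mt-Nd5 and mt-Nd6: ttatcttatactcaaTTAATCTCGAGTAA
The sources used here do not say whether the authors' counting used strand. Reads from mt-Nd6 and from RNA antisense to it therefore cannot be told apart, and the same holds for the 8 light-strand tRNAs.

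Copies of mitochondrial DNA in the nuclear genome bear on the levels below, so every gene was compared with the annotated nuclear transcripts in windows of 35 bases. Nuclear copies held 650 of the 650 windows of mt-Co2, 644 of 647 of mt-Atp6, 749 of 750 of mt-Co3, 308 of 314 of mt-Nd3 and 260 of 263 of mt-Nd4l. They held a part of mt-Nd4, 62.6% of its windows, and of mt-Co1, 60.5%. The other mRNAs shared between 0% (mt-Nd1) and 14.5% (mt-Nd5), mt-Rnr2 shared 2.20%, and mt-Rnr1 and all 22 tRNAs shared none. Printed here are the start of the stretch of mt-Co1 that a copy (Gm29216) holds up to the end of the gene and the end of the stretch of mt-Nd4 that another (Gm28439) holds from its start, with the bases of that copy in capitals. Gm29216 holds 445 of the 1511 windows of mt-Co1, and other copies hold windows that lie before this point. The first 60 bases of mt-Co2, which a single copy (Gm28661) holds whole, are in lower case.
mt-Co1: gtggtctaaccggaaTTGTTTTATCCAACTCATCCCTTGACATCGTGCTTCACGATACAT
mt-Co2: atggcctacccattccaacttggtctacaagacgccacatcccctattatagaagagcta
mt-Nd4: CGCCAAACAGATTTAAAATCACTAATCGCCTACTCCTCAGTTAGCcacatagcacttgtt

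The libraries held 7.16 to 29.9 M (megareads) counted reads, a depth worked out from the step size of low RPKM values in short RNAs. The summed markers of the olfactory bulb (14 of 16 matched, none at 0) stood between 3361 and 3968 RPKM. Sums were 6.05 to 9.33 RPKM for 4 markers of frontal cortex and 1.47 to 8.15 RPKM for 3 of choroid plexus. For 6 genes listed for olfactory epithelium the sum was 22.0 to 40.2 RPKM. It came mostly from Adcy3, Gnal and Ermn (means of 12.8, 9.40 and 5.63 RPKM), with Cnga2 and Cyp2a5 at 0.41 and 0.39 RPKM. This sum is not a measure of epithelium in the dissection. The libraries of mouse number 2 stand apart from the others of their group in the mitochondrial genes, and in part of the other genes too. The median differences of the mRNAs between groups are therefore also given without them. Group means, spreads and ratios below include them. The numbers 1 to 3 come from the sample titles, which do not say what a shared number marks, and the 9 mice are separate animals. The submitters' descriptions number the libraries otherwise: mouse 2 is Control_C2, Stim30_3 and Stim120_3, and mouse 3 is Control_C5, Stim30_4 and Stim120_4. Mouse 1 has the number 1 in both.

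Among the genes with a signal in the table, cytochrome b and the large catalytic subunit of cytochrome oxidase had the highest levels, and one stretch of the genome gave almost no signal. Over the 9 libraries, 21 of the 37 genes reached a mean of 1 RPKM: 7 mRNAs, both rRNAs and 12 tRNAs. Another 14 genes were listed at 0 in every library, and mt-Nd3 and mt-Tr were above 0 in 1 library each. Of the 28 heavy-strand genes 10 were at 0 in all 9 libraries, and of the 9 light-strand genes 4 were.

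**Figure D1:**
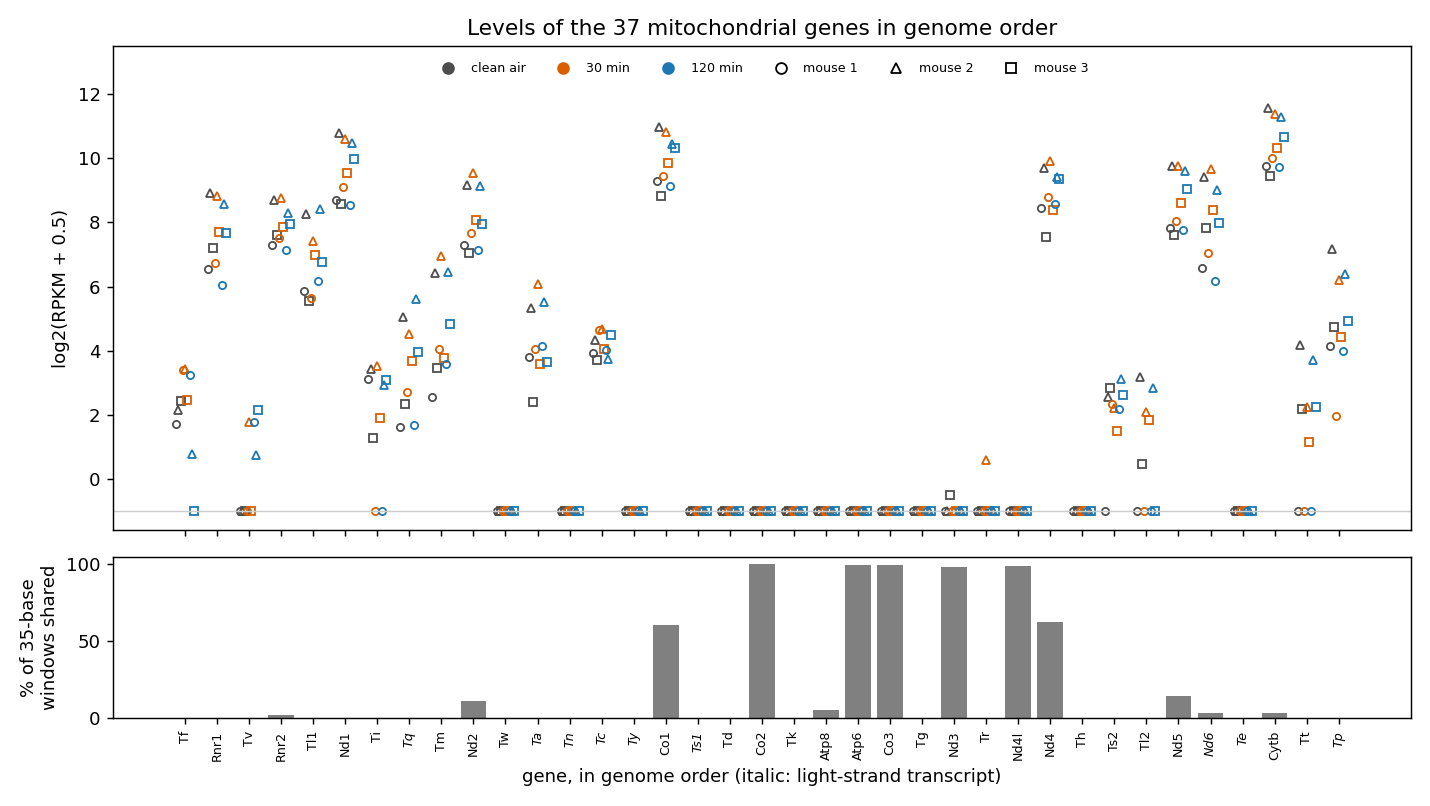
Upper panel: log2(RPKM + 0.5) of each of the 37 mitochondrial genes in each of the 9 libraries, in genome order along the horizontal axis, with color for the group and marker shape for the mouse number. Lower panel: percentage of each gene's 35-base windows that also occur in an annotated nuclear transcript. The 11 neighbouring genes from mt-Ts1 to mt-Nd4l lie on the floor with 2 values above it, and the 5 genes with over 98% of shared windows are among them.

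The stretch at the floor runs from mt-Ts1 to mt-Nd4l, 11 neighbouring genes between mt-Co1 and mt-Nd4. It holds mt-Co2 and mt-Co3, subunits of cytochrome oxidase, mt-Atp8 and mt-Atp6, subunits of ATP synthase, mt-Nd3 and mt-Nd4l, small subunits of complex I, and 5 tRNAs. Of its 99 values, 97 were 0. The 2 others were mt-Nd3 at 0.21 RPKM in clean air mouse 3, about 2 counts, and mt-Tr at 1.02 RPKM in mouse 2 of the 30 min group, about 1 count. In these libraries 3 counts of mt-Co2 correspond to 0.154 to 0.645 RPKM. This floor covers counting error alone, and a gene listed at 0 here is not shown to be unexpressed.

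In the stretch at the floor, the zeros and the annotated nuclear copies fall on much of the same ground, though not on all of it. Only annotated transcripts were searched, so a low share does not show that the nuclear genome holds no copy. The 5 mRNAs with over 98% of shared windows were all at 0 or near it. But mt-Atp8 was at 0 with 5.29% of its windows shared, and so were 4 of the 5 tRNAs of the stretch, which share none. Outside the stretch the tRNAs mt-Tw, mt-Tn, mt-Ty, mt-Th and mt-Te were also at 0 in every library and share none. mt-Co1 kept high values with 597 of its 1511 windows outside the annotated copies, and mt-Nd4 with 502 of its 1344. Of the 7 nuclear copies with at least 50% of windows shared, only the copy of mt-Nd4l (Gm10222) has a row in the table, at 0 in all 9 libraries. The sources used here do not say how reads with several matches were treated, and the part of the copies in these zeros was not tested. The levels of mt-Co1 and mt-Nd4, and so their place among the mRNAs, are uncertain for the same reason.

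The mRNA of cytochrome b, the mitochondrial subunit of complex III, was the highest of those measured. In clean air mt-Cytb stood at 863, 3028 and 697 RPKM in mice 1, 2 and 3. At 30 min it stood at 1030, 2648 and 1279 RPKM, and at 120 min at 842, 2489 and 1629 RPKM. Group means were 1529 ± 1300.4 (SD, n = 3), 1652 ± 871 and 1653 ± 824 RPKM in that order. Mouse 2 was highest in each group and the ranges of the groups overlapped. It ranked between 2 and 22 among all genes of a library.

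mt-Co1, the catalytic subunit of complex IV, followed at 627, 2027 and 454 RPKM in clean air mice 1 to 3. The 30 min mice had 694, 1795 and 926 RPKM of mt-Co1, and the 120 min mice 561, 1389 and 1290 RPKM. Mouse 2 was again the highest of each group, by a small margin over mouse 3 at 120 min. mt-Cytb exceeded mt-Co1 in 9 of 9 libraries, by 1.26 to 1.79 times.

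The 5 measured mRNAs of complex I, which takes electrons from NADH, spanned a wide range. mt-Nd1, a membrane subunit, stood at 414, 1751 and 382 RPKM in clean air, 553, 1559 and 741 RPKM after 30 min of odor and 372, 1436 and 1006 RPKM at 120 min. mt-Nd4 stood at 346, 826 and 187 RPKM in clean air, 440, 968 and 337 RPKM after 30 min of odor and 379, 680 and 650 RPKM at 120 min. mt-Nd5 stood at 224, 862 and 194 RPKM in clean air, 262, 857 and 386 RPKM after 30 min of odor and 216, 785 and 527 RPKM at 120 min. For these 3 genes mouse 2 lay above both other mice of its group, and at 120 min mouse 3 came close to it for mt-Nd4.

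mt-Nd2, which follows mt-Nd1 after 3 tRNA genes, was lower. It stood at 156, 576 and 132 RPKM in clean air, 203, 738 and 267 RPKM after 30 min of odor and 140, 558 and 248 RPKM at 120 min. Group means of mt-Nd2 were 288 ± 250 (SD, n = 3), 403 ± 292 and 315 ± 217 RPKM in clean air, at 30 min and at 120 min, so the groups differed by less than the spread within each.

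mt-Nd6, the light-strand mRNA and the last complex I subunit, varied most of the 7 mRNAs. It stood at 94.3, 679 and 227 RPKM in clean air, 133.0, 809 and 331 RPKM after 30 min of odor and 71.3, 518 and 254 RPKM at 120 min. Group means of mt-Nd6 were 334 ± 307 (SD, n = 3), 425 ± 348 and 281 ± 225 RPKM. Mouse 2 was the highest and mouse 1 the lowest of every group, and the highest of the 9 values was 11.3 times the lowest. The same ratio was 4.34 for mt-Cytb, 4.46 for mt-Co1, 4.44 for mt-Nd5, 4.70 for mt-Nd1, 5.17 for mt-Nd4 and 5.57 for mt-Nd2. The transcript of mt-Nd6 is known from other work to carry little or no poly(A) tail.

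**Figure D2:**
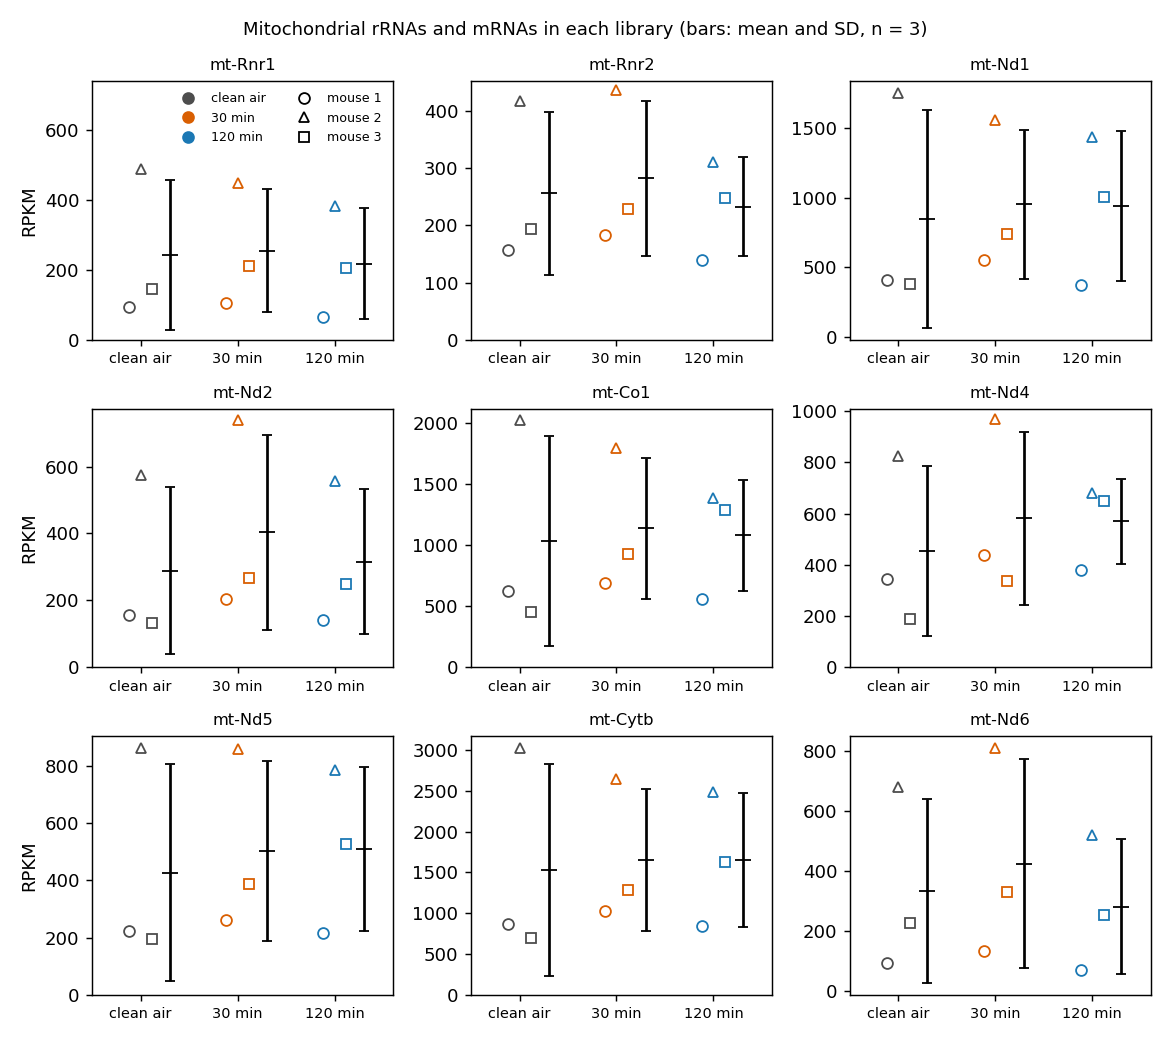
RPKM of the 2 rRNAs and 7 measured mRNAs in each library, with one panel per gene and its own vertical axis, color for the group and marker shape for the mouse number, and the mean and SD (n = 3) beside the points. The triangle of mouse 2 is the highest point of each group in every panel, and the groups overlap for every gene.

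The rRNAs of the small and the large subunit of the mitochondrial ribosome, mt-Rnr1 and mt-Rnr2, reached these oligo-dT libraries at levels below most of the mRNAs. mt-Rnr1 stood at 93.2, 488 and 145 RPKM in clean air, 106, 449 and 210 RPKM after 30 min of odor and 65.9, 382 and 204 RPKM at 120 min. mt-Rnr2 stood at 156, 418 and 193 RPKM in clean air, 182, 436 and 229 RPKM after 30 min of odor and 140, 311 and 247 RPKM at 120 min. Mouse 2 was highest and mouse 1 lowest of each group for both. The summed rRNAs came to 0.0797 to 0.149 of the summed mRNAs per library, and the highest value was that of clean air mouse 3. Mitochondrial rRNAs are known to end in short A tails. The longest encoded runs of A are printed in capitals, 5 bases in mt-Rnr1 and 7 in mt-Rnr2.
mt-Rnr1: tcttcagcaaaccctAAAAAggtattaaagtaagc
mt-Rnr2: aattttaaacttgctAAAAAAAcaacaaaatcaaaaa

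By mean over all libraries the order was mt-Cytb (1612 RPKM), mt-Co1 (1085), mt-Nd1 (913), mt-Nd4 (535), mt-Nd5 (479), mt-Nd6 (346), mt-Nd2 (336), mt-Rnr2 (257) and mt-Rnr1 (238). The order held in 8 of 9 libraries between mt-Co1 and mt-Nd1, between mt-Nd1 and mt-Nd4 and between mt-Nd5 and mt-Nd6. Neighbours that changed places were mt-Nd4 and mt-Nd5 (this order in 5 of 9 libraries), mt-Nd6 and mt-Nd2 (5 of 9), mt-Rnr2 and mt-Rnr1 (6 of 9) and mt-Nd2 and mt-Rnr2 (7 of 9). Differences between these neighbours were not tested. mt-Rnr1 exceeded mt-Rnr2 in the libraries of mouse 2 alone, by 1.03 to 1.23 times.

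tRNAs are shorter than most sequencing fragments and carry no poly(A) tail, and they gave few reads. All tRNA genes together summed to 123, 678 and 124 RPKM in clean air, 131, 518 and 215 RPKM after 30 min of odor and 151, 657 and 237 RPKM at 120 min, which rests on 42.0 to 600.0 counts per library. Of the 22 tRNAs, 9 were at 0 in all libraries: 5 of the 14 on the heavy strand and 4 of the 8 on the light strand. The 4 with the highest means were mt-Tl1 (a leucine tRNA, between mt-Rnr2 and mt-Nd1), mt-Tp (proline, light strand), mt-Tm (methionine) and mt-Ta (alanine, light strand), whose sequences are given because they held most of the summed tRNA level.
mt-Tl1: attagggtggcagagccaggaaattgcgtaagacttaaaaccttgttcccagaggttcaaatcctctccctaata
mt-Tp: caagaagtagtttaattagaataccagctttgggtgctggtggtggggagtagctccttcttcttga
mt-Tm: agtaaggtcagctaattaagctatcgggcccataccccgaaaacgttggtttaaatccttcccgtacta
mt-Ta: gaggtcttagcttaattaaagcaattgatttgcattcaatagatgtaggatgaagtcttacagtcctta

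mt-Tl1 stood at 58.1, 310 and 46.5 RPKM in clean air, 49.8, 169 and 126 RPKM after 30 min of odor and 71.8, 343 and 109 RPKM at 120 min. mt-Tp stood at 17.3, 143 and 26.4 RPKM in clean air, 3.44, 72.6 and 20.9 RPKM after 30 min of odor and 15.4, 82.8 and 29.6 RPKM at 120 min. Both were highest in mouse 2 of each group, and their groups overlapped.

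mt-Tm stood at 5.44, 86.2 and 10.5 RPKM in clean air, 16.2, 124 and 13.1 RPKM after 30 min of odor and 11.6, 87.5 and 28.0 RPKM at 120 min. mt-Ta stood at 13.6, 39.9 and 4.78 RPKM in clean air, 16.2, 67.4 and 11.5 RPKM after 30 min of odor and 17.4, 44.95 and 11.98 RPKM at 120 min. Mouse 2 was the highest here too, by 3.06 to 10.8 times the mean of the other mice of its group for these genes. A tRNA without that pattern was the cysteine tRNA mt-Tc, chosen after its values were seen. It stood at 14.9, 19.7 and 12.6 RPKM in clean air, 24.8, 24.9 and 16.1 RPKM after 30 min of odor and 15.9, 12.9 and 21.8 RPKM at 120 min.

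The spread between mice of one group was the leading feature of these genes. It was measured as the SD of log2(RPKM + 0.5) within groups, pooled over the 3 groups. The SD was 0.82 for mt-Nd4, 0.88 for mt-Co1, 0.90 for mt-Cytb, 1.01 for mt-Nd5, 1.02 for mt-Nd1, 1.05 for mt-Nd2 and 1.39 for mt-Nd6. It was 0.67 for mt-Rnr2 and 1.19 for mt-Rnr1. The median over the 12780 tested genes, those whose mean reached 1 RPKM, was 0.28, and 95% of them lay below 0.68. Measured tRNAs ran from 0.35 for mt-Tc to 2.26 for mt-Tt, the threonine tRNA.

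**Figure D3:**
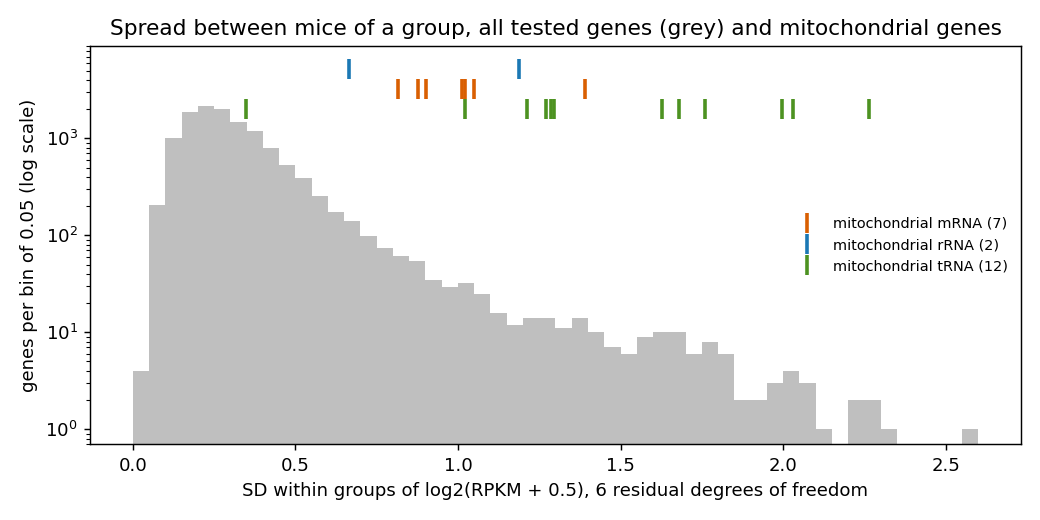
Histogram of the SD within groups of log2(RPKM + 0.5) for all tested genes, with gene number on a log scale, and ticks for the tested mitochondrial mRNAs (7), rRNAs (2) and tRNAs (12). The ticks of 6 mRNAs lie between 0.82 and 1.05 and that of mt-Nd6 at 1.39, to the right of the median of all genes at 0.28.

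The spread was also large beside that of other abundant genes. Of 598 other genes that reached a mean of 100 RPKM, 5 (0.836%) had an SD at or above that of mt-Nd4, the lowest of the mitochondrial mRNAs, and the median of these genes was 0.25. All 7 mRNAs and both rRNAs were highest in mouse 2 in each of the 3 groups, and so were 7 of the 12 measured tRNAs. Over all tested genes mouse 2 was the highest in each group for 14.3%, mouse 1 for 9.16% and mouse 3 for 4.80%. Mouse 2 was also the lowest in each group for 11.9%, mouse 1 for 5.36% and mouse 3 for 7.43%. Mouse 2 thus stood apart in other genes as well. The ranks of the mitochondrial genes describe members that come from shared precursors, so these members do not count as separate observations.

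The excess of mouse 2 was largest in clean air and smallest at 120 min for the heavy-strand mRNAs. For mt-Nd1 it was 4.40 times the mean of the other mice in clean air, 2.41 times at 30 min and 2.08 times at 120 min. mt-Cytb had 3.88, 2.29 and 2.01 times in the same order, and mt-Nd4 3.10, 2.49 and 1.32 times. mt-Nd6 had 4.23, 3.49 and 3.19 times, and mt-Rnr1 4.09, 2.85 and 2.83 times. Each excess rests on 1 library against 2, and the differences between groups in its size were not tested.

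Mitochondrial genes took 0.309% to 0.745% of the counted reads in the 6 libraries of mice 1 and 3. In those of mouse 2 they took 1.27%, 1.22% and 1.02%. A second measure, their share of summed RPKM times length over genes with an annotated length, was lower. By it they took 0.207% to 0.469% in mice 1 and 3, and 0.897%, 0.790% and 0.661% in mouse 2. Mouse 2 had the deepest library of its group and the highest summed mRNAs at 30 min (28.8 M and 9374 RPKM) and at 120 min (24.2 M and 7856 RPKM). In clean air mouse 3 had the deepest library, at 29.9 M, and the lowest summed mRNAs, at 2274 RPKM, while mouse 2 had 22.2 M and 9749 RPKM. The part of depth in the levels was not tested.

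Markers of other cells and of RNA handling were read beside this spread. Of the red blood cell markers 4 of 5 were matched, with Hba-a1 and Hba-a2 listed at 0 in every library, and their sum in mouse 2 stood at 77.4, 197 and 189 RPKM, which was the highest of the group at 30 and 120 min and not in clean air. The sum of 3 histone genes, whose mRNAs mostly lack a poly(A) tail, stood at 61.8 to 81.1 RPKM in mouse 2, 50.5 to 65.1 in mouse 1 and 51.5 to 57.1 in mouse 3, with Hist2h2aa1 at 0 throughout. This sum was highest in mouse 2 in each group, but only 1 of the 2 tested histone genes was so by itself. Gtl2 (Meg3), a nuclear noncoding RNA and the one matched of 3 such RNAs, stood at 589, 322 and 394 RPKM in mouse 2, the highest of its group in clean air alone. The part of these in the mitochondrial levels was not tested.

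Ratios within a library remove what scales all mitochondrial genes together, and several of them still differed between mice. The ratio of mt-Nd6 to mt-Nd5, which overlap tail to tail on opposite strands, was 0.420, 0.788 and 1.17 in clean air, 0.508, 0.944 and 0.857 at 30 min and 0.330, 0.661 and 0.483 at 120 min. Group means of this ratio were 0.793 ± 0.375 (SD, n = 3), 0.770 ± 0.231 and 0.491 ± 0.165, with overlapping ranges. Mouse 1 was lowest in every group. All light-strand genes summed to 143, 915 and 275 RPKM in clean air, 184, 997 and 392 RPKM after 30 min of odor and 123, 707 and 333 RPKM at 120 min. Their highest sum was 8.12 times the lowest, against 4.23 times for the heavy-strand genes. mt-Nd6 held most of the light-strand sum in every library, so its range is largely that of 1 gene. For mt-Rnr1, a heavy-strand gene, the highest value was 7.40 times the lowest.

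The ratio of the 2 rRNAs separated the mouse numbers more cleanly than the groups. mt-Rnr1 over mt-Rnr2 was 0.471 to 0.597 in mice numbered 1, 0.754 to 0.916 in mice numbered 3 and 1.03 to 1.23 in mice numbered 2. Its group means were 0.839 ± 0.294, 0.841 ± 0.233 and 0.841 ± 0.379 (SD, n = 3). Some ratios between heavy-strand mRNAs varied less over the 9 libraries. mt-Cytb over mt-Nd1 ran from 1.62 to 2.26 and mt-Nd5 over mt-Cytb from 0.254 to 0.324. Others varied more than these: mt-Nd2 over mt-Nd1 ran from 0.246 to 0.473 and mt-Nd1 over mt-Nd4 from 0.982 to 2.20. mt-Nd4 over mt-Nd5 ran from 0.867 to 1.76. mt-Tl1 over mt-Nd1, a tRNA and the mRNA that follows it on the precursor, ran from 0.0900 to 0.239.

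**Figure D4:**
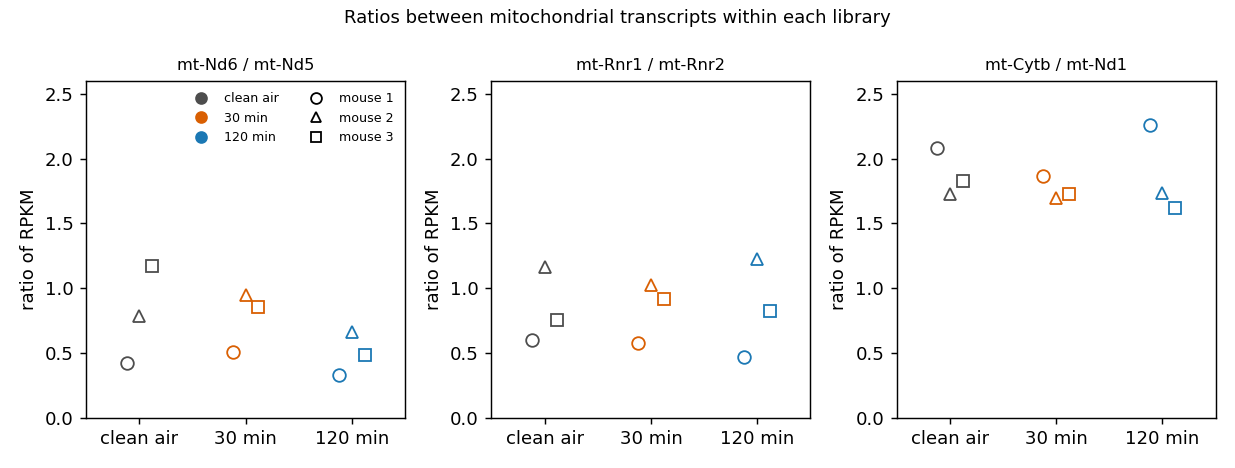
Ratio of RPKM within each library for mt-Nd6 over mt-Nd5, mt-Rnr1 over mt-Rnr2 and mt-Cytb over mt-Nd1, by group on the horizontal axis, with marker shape for the mouse number. In the middle panel mice numbered 1 lie at 0.471 to 0.597 in all groups and mice numbered 2 at 1.03 to 1.23, and in the right panel all points lie between 1.62 and 2.26.

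The remaining SD of each gene, once a term for the mouse number was added to the groups, came near the median of all genes for some genes only. It was 0.18 for mt-Nd6, 0.21 for mt-Rnr2, 0.29 for mt-Rnr1 and 0.30 for mt-Nd2, against a median of 0.22 over all genes. For mt-Cytb it was 0.42, for mt-Nd5 0.45, for mt-Nd1 0.49, for mt-Co1 0.55 and for mt-Nd4 0.56. The labels do not say that mice of one number share a batch, a day or a litter.

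Against that spread, no mitochondrial gene passed the test of a difference between the groups. Differences were fitted with limma on log2(RPKM + 0.5) to all 9 libraries and p-values were adjusted over all 12780 tested genes (Benjamini-Hochberg, two-sided, called at an adjusted p under 0.05). At 30 min against clean air 0 of the 21 tested mitochondrial genes were called, where 0.141% of all genes were. At 120 min against clean air it was 0 of 21 against 0.0861% of all genes, and at 120 min against 30 min 0 of 21 against 0.0782%. At an unadjusted p under 0.05 there were 0, 1 and 2 of 21, where the shares of all genes were 5.92%, 9.57% and 3.36%.

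At 30 min all 7 mRNAs had a higher fitted level than in clean air, with log2 differences of 0.31 (mt-Cytb) to 0.58 (mt-Nd2) and standard errors of 0.52 to 0.86. Without single mice the difference of mt-Nd2 ran from 0.0279 to 1.25. Their adjusted p in limma ran from 0.885 to 0.930. The median of the mRNAs was 0.40, beside 0.08 over all tested genes. It was 1.08 without clean air mouse 2, 0.11 without clean air mouse 1, 0.01 without clean air mouse 3, 0.72 without mouse 1 of the 30 min group, and -0.06 without mouse 2 of that group. With mouse number 2 left out of every group the median was 0.60.

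At 120 min 6 of the 7 mRNAs were above clean air, from 0.23 (mt-Nd2) to 0.55 (mt-Nd4), and mt-Nd6 stood at -0.21 ± 0.86 (SE). Without single mice the difference of mt-Nd4 ran from 0.0434 to 1.11. Adjusted p-values in limma ran from 0.792 to 0.965 and the median was 0.30, beside 0.03 over all genes. The median was 0.96 without clean air mouse 2, 0.05 without clean air mouse 1, -0.10 without clean air mouse 3, 0.72 without mouse 1 of the 120 min group, -0.06 without mouse 2 of that group, and 0.62 without mouse number 2 in every group. A p above the threshold does not show that the levels were alike.

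Between 30 and 120 min the fitted differences of the mRNAs ran from -0.64 ± 0.86 for mt-Nd6 to 0.07 ± 0.52 for mt-Nd4, with 2 of 7 above 0 and adjusted p-values of 0.999 in limma. Their median was -0.07, beside -0.03 over all genes. It turned to 0.35 without mouse 2 of the 30 min group or without mouse 1 of the 120 min group, and was -0.39 without mouse 2 of the 120 min group and -0.36 without mouse 1 of the 30 min group. With mouse number 2 left out of every group it was 0.0288, with 4 of 7 above 0. All 3 comparisons share groups of mice, so they are not separate tests.

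Both rRNAs stood nearer to 0 than the median of the mRNAs in the comparisons with clean air. mt-Rnr1 differed by 0.20 ± 0.74 (SE) at 30 min and by -0.12 ± 0.74 at 120 min from clean air. mt-Rnr2 differed by 0.18 ± 0.43 and by -0.08 ± 0.43, and the last value turned to 0.10 with mouse number 2 left out of every group. At 120 min against 30 min they stood at -0.32 ± 0.74 and -0.25 ± 0.43, farther from 0 than the median of the mRNAs. Neither rRNA was called.

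**Figure D5:**
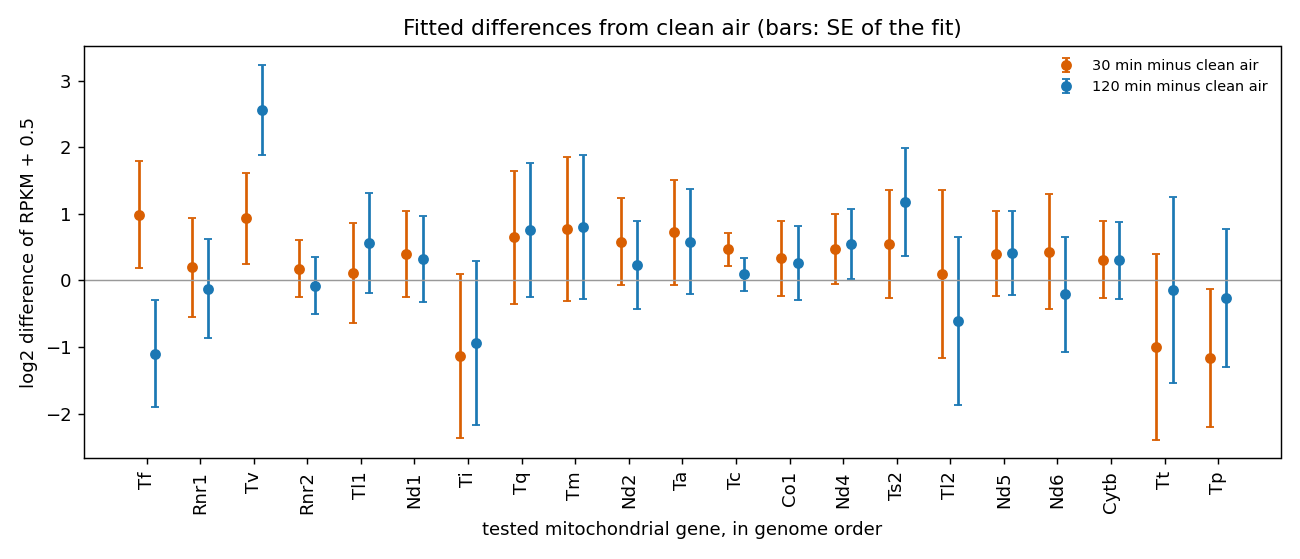
Fitted difference on the log2(RPKM + 0.5) scale of each tested mitochondrial gene at 30 min (orange) and 120 min (blue) against clean air, in genome order, with bars of 1 standard error of the limma fit. The bars of 6 of the 7 mRNAs and of both rRNAs cross 0 in both comparisons, and mt-Tv at 2.56 is the farthest from 0.

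Among the tRNAs the lowest unadjusted p-values belonged to genes with few reads. The valine tRNA mt-Tv was at 0 in the 3 clean air libraries, at 2.97 RPKM in mouse 2 alone at 30 min, and at 2.90, 1.18 and 3.99 RPKM at 120 min. These values stand for about 3 counts in the 30 min library and 1 count in each library at 120 min, where 3 counts correspond to 3.55 to 11.98 RPKM, so no fold is given. The fitted log2 difference at 120 min against clean air depends on the pseudocount: it was 2.56 ± 0.68 (SE, adjusted p = 0.339 in limma) with 0.5 RPKM, 4.65 with 0.1 RPKM and 1.80 with 1 RPKM. The phenylalanine tRNA mt-Tf stood at 2.80, 3.98 and 4.92 RPKM in clean air, 10, 10.2 and 5.06 RPKM after 30 min of odor and 8.95, 1.22 and 0 RPKM at 120 min, which rests on at most 10 counts in a library. mt-Tf differed by -2.09 ± 0.80 between 30 and 120 min, with an adjusted p of 0.999 in limma, and by -3.20 to -1.08 without single mice.

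Few mitochondrial genes had groups without overlap. mt-Tf was the single one of 21 genes whose 30 min values all lay to one side of the clean air values, where 11.4% of all tested genes did so. mt-Tv was the single one at 120 min against clean air, where 13.1% did, and none did between 30 and 120 min, where 10.6% did. These members' shares lie at or below those of all genes.

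The proteins that transcribe, copy, cut and stabilise mitochondrial RNA are encoded in the nucleus, and 3 lists of such genes were read in the same libraries. Of 17 genes of transcription and replication 14 were tested, and none was called in any of the 3 comparisons. The highest were Polg, the DNA polymerase of mitochondria, at a mean of 23.9 RPKM, Polrmt, the RNA polymerase, at 18.3 RPKM and Top1mt, a topoisomerase, at 7.23 RPKM. Polrmt stood at 20.5 ± 3.35, 15.8 ± 2.26 and 18.6 ± 2.61 RPKM in clean air, at 30 min and at 120 min (SD, n = 3), a log2 difference of -0.37 ± 0.18 (SE) at 30 min with an adjusted p of 0.832 in limma. The median differences of the list were 0.01 at 30 min and -0.03 at 120 min against clean air.

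All 36 genes of RNA processing, polyadenylation and stability were tested and none was called. The highest were Fastk, of a family of mitochondrial RNA-binding proteins, at 61.6 RPKM, Dhx30, a helicase of mitochondrial RNA granules, at 41.5 RPKM and Rexo2, an exonuclease that degrades short RNAs, at 31.6 RPKM. Median differences from clean air were 0.09 at 30 min and 0.01 at 120 min. Of 19 nuclear regulators of mitochondrial biogenesis 17 were tested and none was called, with medians of 0.20 and 0.32. Esrra, a nuclear receptor that drives respiratory genes, stood at 42.7 RPKM, Sirt3, a mitochondrial deacetylase, at 41.2 RPKM and Hcfc1, a transcriptional coregulator, at 30.4 RPKM.

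By their medians, the nuclear lists spread less between mice than the mitochondrial mRNAs did. Single genes reached the range of those mRNAs: Slirp at an SD of 1.05, Ssbp1 at 0.90 and Fastkd3 at 0.85. The median SD within groups was 0.30 for transcription and replication, 0.28 for RNA processing and 0.28 for the biogenesis regulators, beside 0.28 over all genes. Mouse 2 was the highest of each group for 2 of 14, 6 of 36 and 4 of 17 tested genes of these lists, beside 14.3% of all genes.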

How the data were processed

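Gene levels of 9 olfactory bulb libraries were taken from one table of RPKM values (reads scaled by gene length and library size), made by the authors and used as deposited. The submitters' processing notes name Bowtie and the genome build mm9. The sources used here do not give the annotation, the counting rule, the treatment of reads that match several places or whether strand was used. GENCODE M21 describes a later build, so it gave names, strand, gene order, lengths and transcript sequences by identifier, and no positions are printed. Nuclear copies were sought among its transcripts in windows of 35 bases. Depth was recovered from 1972 RNAs under 200 nt: with a length 34 nt shorter than annotated, 85.3% to 92.5% of the multiples per library were whole within 0.05, against 12.3% to 29.2% with the full length. The floor was 3 counts. The sources used here do not say whether a count is a read or a pair.

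Genes whose mean reached 1 RPKM were fitted with limma 3.58.1 in R 4.3.3 on log2(RPKM + 0.5), with an eBayes trend, and the fit was tested on simulated data. Named were both rRNAs, all mRNAs, the 4 tRNAs with the highest means and, of each nuclear list, the 3 genes with the highest means. The tRNAs mt-Tv and mt-Tf, with an unadjusted p under 0.05 in limma, and mt-Tc were added after their values were seen. The members, lists and tests were chosen with earlier results of these data known. Alternatives changed the pseudocount, the filter, the scaling, the libraries in the fit, the trend and the mouse number, and left out each mouse in turn. Leaving mouse number 2 out of every group was added after the data were seen.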

Additional observations from a re-analysis of the deposited data

How the results depend on the processing

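No mitochondrial gene was called in any comparison under any of the 19 alternatives, and the lowest adjusted p was 0.0857, for mt-Tv at 120 min against clean air without mouse 2 of the 30 min group. Over all genes, the calls at 30 min against clean air went from 18 to 10 with mouse number 2 left out of every group, and to between 13 and 19 without single mice. At 120 min against clean air they went from 11 to 0 with no filter on low values (1642 genes at an unadjusted p under 0.05 in limma), to 7 with a mean of at least 5 RPKM, to 2 with mouse number 2 left out and to 2 with only the groups compared. Without single mice they ranged from 0 to 11, with 0 (1092 at an unadjusted p under 0.05) without clean air mouse 2, 0 (855) without mouse 3 of the 120 min group, 3 without mouse 1 or mouse 2 of that group and 6 without clean air mouse 1. At 120 min against 30 min they went from 10 to 2 with no filter, and to between 7 and 10 without single mice. The cause was not tested. With no filter the mRNAs at 0 enter the median of the mRNAs, which was then 0.31 at 30 min and 0.00 at 120 min against clean air.

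Of 852 values of named genes under the alternatives, 75 changed direction, 70 of them when a single mouse was left out, and none passed the threshold. With mouse number 2 left out, mt-Rnr2 at 120 min against clean air turned to 0.10, and at 120 min against 30 min mt-Co1 turned to 0.0862, mt-Cytb to 0.0288 and mt-Ta to 0.0791. Scaling by median ratios turned mt-Cytb to 0.0117 in that comparison. Without single mice, the log2 differences at 30 min against clean air ranged from -0.33 to 0.88 for mt-Rnr1, -0.19 to 0.60 for mt-Rnr2, -0.0259 to 1.11 for mt-Nd1, -0.10 to 0.97 for mt-Co1, -0.0311 to 1.04 for mt-Nd4, -0.0736 to 1.08 for mt-Nd5, -0.25 to 1.17 for mt-Nd6, -0.0920 to 0.97 for mt-Cytb, -0.39 to 0.97 for mt-Tl1, -0.24 to 1.91 for mt-Tm and -0.0297 to 1.47 for mt-Ta. Without a change of direction, but by over 1.5 times, single mice also moved mt-Nd2 (0.0279 to 1.25), mt-Tp (-2.16 to -0.0529) and mt-Tv (0.00 to 1.40) in this comparison, mt-Nd4 (0.0434 to 1.11), mt-Nd5 (0.00998 to 1.10), mt-Tm (0.0123 to 1.95) and mt-Tf (-2.22 to -0.0967) at 120 min against clean air, and mt-Tf (-3.20 to -1.08) and mt-Tv (1.16 to 2.56) at 120 min against 30 min. At 120 min against clean air they ranged from -0.69 to 0.57 for mt-Rnr1, -0.36 to 0.35 for mt-Rnr2, -0.0897 to 1.03 for mt-Nd1, -0.30 to 0.90 for mt-Nd2, -0.17 to 0.91 for mt-Co1, -0.89 to 0.57 for mt-Nd6, -0.10 to 0.96 for mt-Cytb, -0.0931 to 1.41 for mt-Tl1, -0.91 to 0.64 for mt-Tp and -0.14 to 1.33 for mt-Ta. At 120 min against 30 min they ranged from -0.89 to 0.38 for mt-Rnr1, -0.52 to 0.11 for mt-Rnr2, -0.49 to 0.48 for mt-Nd1, -0.88 to 0.20 for mt-Nd2, -0.36 to 0.35 for mt-Co1, -0.24 to 0.52 for mt-Nd4, -0.39 to 0.54 for mt-Nd5, -1.29 to 0.14 for mt-Nd6, -0.37 to 0.41 for mt-Cytb, -0.21 to 0.92 for mt-Tl1, -0.21 to 1.90 for mt-Tp, -0.72 to 1.05 for mt-Tm and -0.68 to 0.61 for mt-Ta.

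Deviations from the group means correlated at 0.0810 to 0.444 between mice of the same number and at -0.380 to 0.0865 between other mice, and each of the 9 libraries correlated best with one of its own number, a hint from the data and not from the labels. As 2 of the 9 same-number pairs were at or below 0.1, the numbers were not taken to pair the mice. With the mouse number as a replicate block, 22, 11 and 10 genes were called in the 3 comparisons and 0 mitochondrial genes, with lowest adjusted p-values among them of 0.405, 0.195 and 0.615. At an unadjusted p under 0.05 there were then 6, 3 and 5 of 21, beside 1396, 1910 and 854 of all 12780 genes. Depth limits the tRNAs most, as 3 counts of mt-Tl1 correspond to 2.45 to 10.2 RPKM.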
